A study of Mus musculus with 6 samples.

Results

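The genes described are 9 very long genes whose proteins link parts of the sarcomere, the cytoskeleton and the nucleus: *Ttn*, *Speg*, *Neb*, *Nebl*, *Macf1*, *Dst*, *Syne1*, *Syne2* and *Ahnak*. They were chosen by name and by the measured difference between αKG and DMSO libraries, so the differences below are a description of these genes and not a test of them. All 9 were found, out of 20066 genes in the table. Total RNA was sequenced from cultured cardiomyocytes (CMs) of newborn (P0-1) C57BL/6 mice, a wild-type strain, in 6 libraries, 3 of cells given the solvent DMSO and 3 of cells given αKG, the Krebs cycle metabolite α-ketoglutarate. The labels give 100 µM αKG and 96 h, and the study's methods name the cell-permeable octyl ester and a higher concentration. For imaging, the methods describe each neonatal sample as 1 isolation from pooled hearts. Whether this holds for the RNA is not given in the sources used here, so the spread between libraries may be partly technical.

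Titin runs from the Z-disc to the M-band of the sarcomere, the contractile unit of striated muscle, and acts as its molecular spring. Nebulin lies along the thin filament in skeletal muscle, and its short relative nebulette is the form of the heart. The spectraplakins MACF1 and dystonin connect actin filaments with microtubules and, for dystonin, intermediate filaments. The giant nesprins, encoded by *Syne1* and *Syne2*, span the outer nuclear membrane and tie the cytoskeleton to the nucleus. AHNAK is a giant scaffold beneath the plasma membrane that binds S100A10 with annexin A2 and the L-type calcium channel. All of these genes produce several isoforms, and the gene-level values could not tell them apart.

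The RefSeq start sites were examined first, because the values below are sums over all starts of a gene. For 8 of the 9 genes 17 starts were listed on GRCm38.p6, among them 1 each for *Ttn*, *Macf1*, *Syne2* and *Ahnak*, 2 for *Dst*, 3 for *Syne1* and 4 each for *Nebl* and *Speg*. The 250 bases before the start are shown for the 4 genes where a listed start is also the outer end of the annotated gene. *Ttn* and *Macf1* had no overlap between the groups of libraries, and *Speg* and *Ahnak* had overlapping groups. Sequences run 5′ to 3′ along the gene's strand, and capitals mark every match to the motifs named after them. The windows are chr2:76982548-76982797 on the minus strand for *Ttn*, chr1:75375047-75375296 on the plus strand for *Speg*, chr4:123684361-123684610 on the minus strand for *Macf1* and chr19:8989034-8989283 on the plus strand for *Ahnak*.
Ttn: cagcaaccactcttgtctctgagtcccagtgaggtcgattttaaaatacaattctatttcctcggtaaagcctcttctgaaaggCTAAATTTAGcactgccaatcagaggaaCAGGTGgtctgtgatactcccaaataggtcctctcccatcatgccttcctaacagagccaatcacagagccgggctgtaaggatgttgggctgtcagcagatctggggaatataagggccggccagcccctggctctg
Speg: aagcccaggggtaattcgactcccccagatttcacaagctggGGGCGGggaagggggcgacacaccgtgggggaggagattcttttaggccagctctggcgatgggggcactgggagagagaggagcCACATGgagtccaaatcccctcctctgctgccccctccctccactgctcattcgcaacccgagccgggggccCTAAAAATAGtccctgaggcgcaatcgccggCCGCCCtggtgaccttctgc
Macf1: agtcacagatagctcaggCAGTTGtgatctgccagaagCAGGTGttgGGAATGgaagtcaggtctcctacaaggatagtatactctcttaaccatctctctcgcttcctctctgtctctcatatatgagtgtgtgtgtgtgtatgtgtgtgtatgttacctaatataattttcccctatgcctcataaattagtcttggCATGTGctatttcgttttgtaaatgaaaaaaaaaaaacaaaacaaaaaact
Ahnak: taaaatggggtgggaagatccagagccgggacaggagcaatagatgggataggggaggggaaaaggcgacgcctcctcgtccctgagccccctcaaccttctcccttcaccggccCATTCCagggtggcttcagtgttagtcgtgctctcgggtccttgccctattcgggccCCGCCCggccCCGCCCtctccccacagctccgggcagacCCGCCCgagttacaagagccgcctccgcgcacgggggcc

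Each motif was searched on both strands, and no match overlapped another in these 4 windows. The MEF2 box, the site of the MEF2 family of muscle factors, occurred once in the windows of *Ttn* and *Speg*, 166 to 157 and 51 to 42 bases before the start, against 2.92% of all 32851 listed windows. It had no match in the windows of *Macf1* and *Ahnak*. The M-CAT element GGAATG, the letters bound by TEAD factors, occurred once each in *Macf1* and *Ahnak* (12.6% of all windows). The E-box CANNTG matched once in *Ttn* and *Speg* and 3 times in *Macf1*, with 66.2% of all windows holding it. The GC box GGGCGG matched 2 times in *Speg* and 3 times in *Ahnak*, against 32.7% of all windows. The CArG box, with 1.47% of all windows, and TATAAA, with 12.4%, had no match in the 4. Base composition also differed, from 38.4% G and C in *Macf1* to 63.6% in *Speg* and 66.4% in *Ahnak*, with *Ttn* between them. These matches are letters in a window and no evidence of binding.

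Depth was alike in the 6 libraries, with 3726069 to 4428350 estimated reads. αKG replicate 3 stood apart from the other αKG libraries: the chi-square per gene, which is 1 for sampling noise alone, was 10.8 and 9.83 against αKG replicates 1 and 2 and 1.52 between those 2. The members are therefore given with and without it. Between DMSO replicates 2 and 3 the chi-square per gene was 1.02, within sampling noise, whereas the other DMSO pairs were at 1.43 and 1.93. The planned fit kept them as 2 libraries, and results with both counted as 1 sample are given beside it. All 12 cardiomyocyte markers were listed, with a summed value of 28969 to 29597 in the DMSO libraries, and *Ryr2*, *Myh6* and *Mybpc3* were the highest of them.

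Levels between genes were compared only as normalized counts per kb of merged exon. In the DMSO libraries *Ttn* ranked first at 441, 464 and 455 per kb, above 99.7% of protein-coding genes. *Ahnak* followed at 360 to 369 and *Macf1* at 274 to 286. *Dst*, at 173 to 187, and *Nebl*, at 180 to 181, had overlapping ranges and were not separated. *Speg* lay at 103 to 110, and *Syne2* (55.7 to 63.7) and *Syne1* (52.4 to 56.2) overlapped again. *Neb* was last, at 1.05 to 1.39 per kb, higher than only 12.1% of protein-coding genes. The order of the group means was the same in the αKG libraries.

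**Figure D1:**
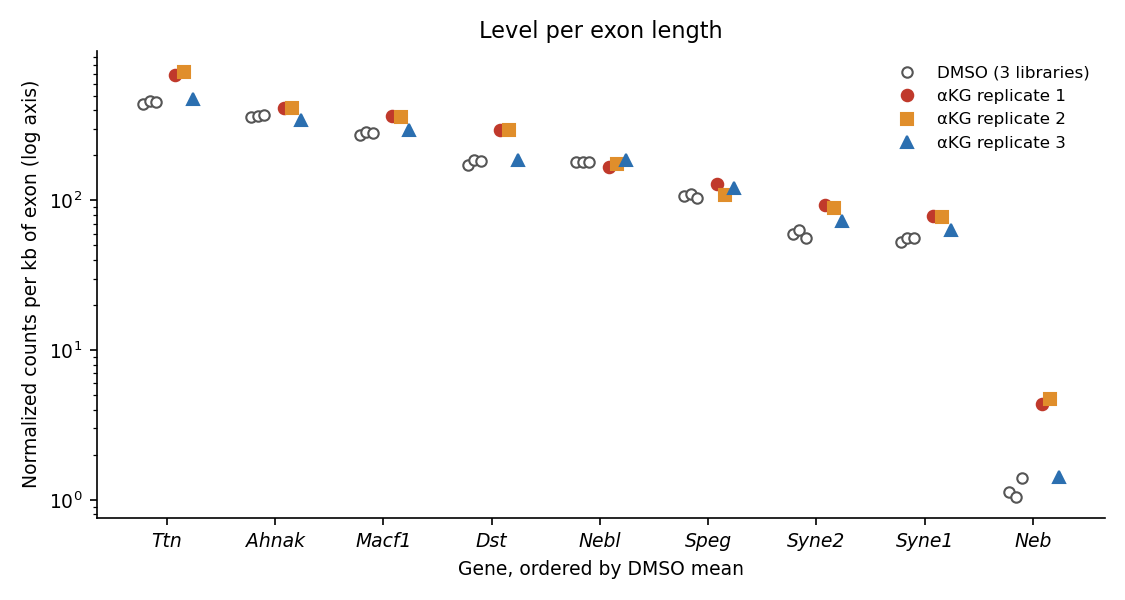
Normalized counts per kb of merged exon (log axis) for the 9 genes in each library, ordered by the DMSO mean; open circles are the 3 DMSO libraries and filled symbols the αKG libraries. *Ttn* lies at 441 to 464 and *Neb* at 1.05 to 1.39 per kb in the DMSO libraries, and *Dst* and *Nebl* share a range.

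Across the 9 genes, 2 passed the threshold of 0.05 for the adjusted p (limma, all genes), *Syne1* and *Syne2*, both higher in αKG. Of all genes, 3.78% passed in either direction and 2.83% were higher. In 5 of the 9 genes every αKG library lay above every DMSO library, and in 0 every one lay below, compared with 13.7% and 14.6% of all genes. An unadjusted p under 0.05 was found for 6, against 28.1% of all genes. Since the genes were selected on this contrast, nothing is read from these counts. With αKG replicate 3 left out 7 of the 9 passed, and with any other library left out, or with DMSO replicates 2 and 3 counted as 1 sample, 0 passed. Without αKG replicate 3, 7466 of the 20066 genes passed, 3865 of them higher. A pass in that fit, given for single members below, is therefore not particular to them. The median log2 fold change of the 9 genes was 0.41, and that of all genes was 0.04. In bulk RNA, more cells of a type and more RNA per cell cannot be told apart, and marker genes that moved with the members are given further on.

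Titin gave the largest value of the table in the mean of all libraries. *Ttn* (ENSMUSG00000051747, GRCm38 chr2:76703980-76982547, minus strand) has 345 merged exons with 116.8 kb in all, and its longest annotated protein has 35213 residues. Its normalized counts, which are reads scaled between libraries by the authors, were 51569, 54216 and 53157 in the DMSO libraries and 80306, 84136 and 55569 in the αKG libraries. The first 2 αKG libraries were far above the controls, and the third was just above the highest control. *Ttn* alone held 1.27% to 1.32% of all counts in the DMSO libraries and 1.93%, 2.02% and 1.35% in the αKG libraries. The log2 fold change was 0.45 ± 0.13 (SE, limma adjusted p = 0.073), but it was -0.07 after a correction for GC content and exon length with no limit on the trend, and 0.24 with a limited trend. Without αKG replicate 3 it was 0.63 and passed the threshold.

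SPEG is a kinase of the junctions between the T-tubules and the sarcoplasmic reticulum and belongs to the same family of giant muscle proteins. *Speg* (ENSMUSG00000026207, chr1:75375297-75432320) had normalized counts of 1358, 1398 and 1309 with DMSO and 1627, 1375 and 1534 with αKG. The groups overlapped, because αKG replicate 2 lay below the highest control. The log2 fold change was 0.16 ± 0.07 (SE, limma adjusted p = 0.189). It was 0.26 after the GC and length correction, and then passed the threshold (limma adjusted p = 0.0428), and 0.14 without αKG replicate 3, where it did not. *Speg* thus differed from *Ttn* in which αKG libraries were high: as a percent of *Ttn* within a library, not corrected for length, it was 2.46 to 2.63 in the DMSO libraries and 2.03, 1.63 and 2.76 in the αKG libraries.

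Nebulin and nebulette differed from each other in level and in pattern. *Neb* (ENSMUSG00000026950, chr2:52136647-52378474) had normalized counts of 30, 28 and 37 with DMSO and 116, 125 and 38 with αKG. The groups did not overlap, but αKG replicate 3 exceeded the highest control by 1 count, so the log2 fold change, 1.36 ± 0.40 (SE, limma adjusted p = 0.0783) with a 95% interval from 0.47 to 2.25, came from the other αKG libraries. Without αKG replicate 3 it was 1.90 and passed. *Nebl* (ENSMUSG00000053702, chr2:17343909-17731464) was steady, at 2743, 2751 and 2738 with DMSO and 2535, 2684 and 2817 with αKG. Its αKG libraries lay on both sides of the controls, and the log2 fold change was -0.04 ± 0.05, with a 95% interval from -0.16 to 0.08. After the GC and length correction it was -0.29, and without αKG replicate 3 it was -0.07, neither past the threshold. In the fit of all 6 libraries none of the 6 skeletal muscle markers in the table passed the threshold. Their median log2 fold change was 0.32, with 4 positive differences, and only *Ckm* and *Tnni2* had a mean of at least 10. Without αKG replicate 3, 2 of 6 skeletal muscle markers were called higher and 0 lower, with a median of 0.6. In that fit 7466 of all 20066 genes passed, 3865 of them higher. *Tnnt3* had 4, 2 and 4 normalized counts with DMSO and 18, 21 and 2 with αKG. *Ckm* and *Tnni2* had log2 fold changes of -0.08 and -0.52 with all libraries. *Myod1*, *Myog*, *Myf5* and *Myf6* were not among the 20066 genes.

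Of the spectraplakins, *Dst* had the larger difference and *Macf1* the higher level per kb. *Macf1* (ENSMUSG00000028649, chr4:123349633-123684360) had normalized counts of 8601, 8992 and 8827 with DMSO and 11478, 11396 and 9189 with αKG. All αKG libraries were above all controls, with replicate 3 the closest. The log2 fold change was 0.27 ± 0.08 (SE, limma adjusted p = 0.0758), though it was -0.02 with quantile normalization and 0.06 after the GC and length correction. *Dst* (ENSMUSG00000026131, chr1:33908225-34308661) had 7121, 7685 and 7568 with DMSO and 12057, 12087 and 7605 with αKG. Its first 2 αKG libraries were higher than any control, and the third lay inside the control range. The log2 fold change was 0.47 ± 0.15 (SE, limma adjusted p = 0.0899). Without αKG replicate 3, *Dst* was at 0.70 and *Macf1* at 0.38, and both passed. The value of *Dst* as a percent of that of *Macf1*, without regard to length, was 82.8 to 85.7 in the controls, 105 and 106 in αKG replicates 1 and 2 and 82.8 in αKG replicate 3.

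The nesprin genes were the members that passed the threshold with all 6 libraries. *Syne1* (ENSMUSG00000096054, chr10:5020917-5551482) had normalized counts of 2123, 2277 and 2256 with DMSO and 3174, 3153 and 2578 with αKG. *Syne2* (ENSMUSG00000063450, chr12:75818134-76110926) had 1603, 1702 and 1489 with DMSO and 2499, 2379 and 1953 with αKG. In both genes even αKG replicate 3, the lowest αKG library, exceeded every control, by 0.22 and 0.29 over the control mean on the log2 scale. The log2 fold changes were 0.41 ± 0.08 (SE, limma adjusted p = 0.035) for *Syne1* and 0.50 ± 0.09 (limma adjusted p = 0.0293) for *Syne2*. Counting DMSO replicates 2 and 3 as 1 sample left the sizes at 0.43 and 0.50 and ended both calls (limma adjusted p = 0.186 and 0.17). Without αKG replicate 3 they were 0.51 and 0.61 and still called, and without any other single library neither was called. *Syne2* as a percent of *Syne1*, not corrected for length, was 66.0 to 75.5 in the controls and 75.5 to 78.7 with αKG.

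*Ahnak* (ENSMUSG00000069833, chr19:8989284-9076914) has only 10 merged exons, since 1 very large exon encodes most of the protein. Its normalized counts were 7183, 7306 and 7354 with DMSO and 8294, 8268 and 6848 with αKG. αKG replicates 1 and 2 were higher than all controls, and replicate 3 was lower than all of them. The log2 fold change was 0.09 ± 0.07 (SE, limma adjusted p = 0.399) and turned to -0.07 with quantile normalization and to -0.04 after the GC and length correction. Without αKG replicate 3 it was 0.19 and passed the threshold (limma adjusted p = 0.0025).

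**Figure D2:**
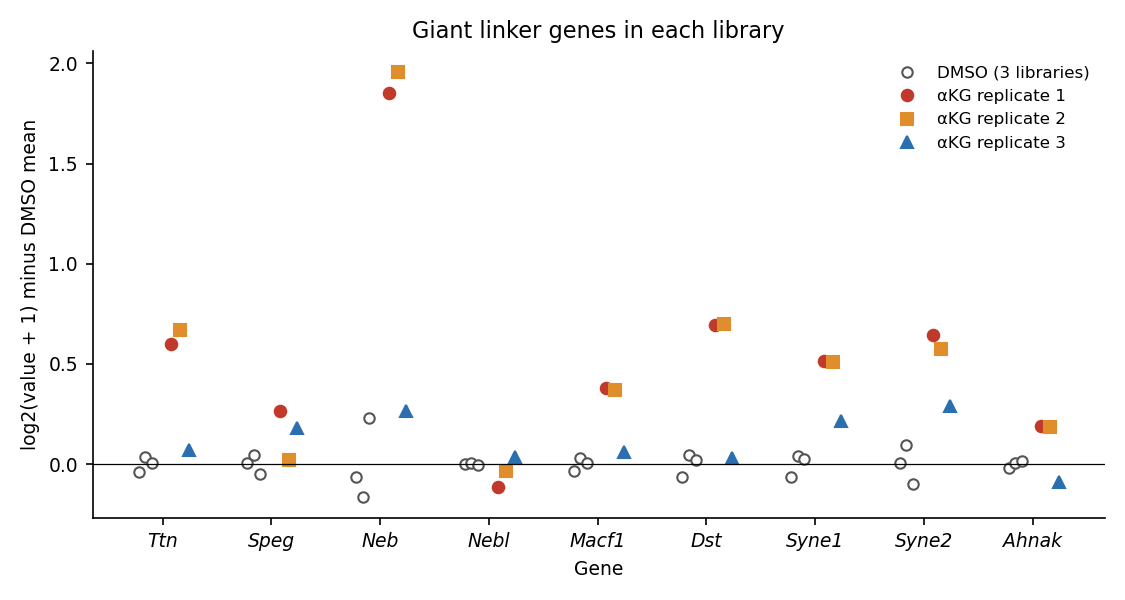
Difference of log2(value + 1) from the DMSO mean for the 9 genes in each library; open circles are the 3 DMSO libraries and filled symbols the αKG libraries. αKG replicates 1 and 2 lie close together and above the controls for all genes but *Speg* and *Nebl*, and αKG replicate 3 lies near the controls except for *Speg*, *Syne1* and *Syne2*.

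Most members thus had the same order of the αKG libraries, an order that was not counted over all genes. Over all genes, αKG replicate 3 correlated more with the DMSO libraries (Pearson's r of log2 values 0.977 to 0.98) than with αKG replicates 1 and 2 (0.962 and 0.963). The order therefore need not be particular to the members. The median difference of the 9 genes from the DMSO mean was 0.52 and 0.51 in αKG replicates 1 and 2 and 0.07 in αKG replicate 3 on the log2 scale, where the medians of all genes were 0.05, 0.04 and 0.00. αKG replicate 3 was the lowest αKG library for 7 of the 9 genes, the exceptions being *Speg* and *Nebl*. Over the 6 libraries, Pearson's r of log2 values among the 7 genes without *Speg* and *Nebl* ranged from 0.742 to 0.996 over 21 pairs, with *Ttn* and *Dst* at 0.996 and *Syne2* and *Ahnak* at 0.742. *Speg* correlated with them at 0.227 to 0.697. *Nebl* correlated negatively with all other members, from -0.868 to -0.495. These 6 points share library, treatment and composition, and such values were common: of 8168 protein-coding genes with a mean of at least 100, 449 had r above 0.95 with *Ttn* and 479 with *Dst*, compared with 5 for *Speg* and 108 for *Nebl*.

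The genes with the pattern most like each member were named by the highest r over the 6 libraries. For *Ttn* these were *Adam9*, *Cyth3* and *D10Wsu102e* (0.9989 to 0.9987), and for *Dst* *Zcchc7*, *Fndc3a* and *D10Wsu102e* (0.9996 to 0.9988). *Macf1* was closest to *Tenm3*, *Pde4dip* and *R3hdm1* (0.9995 to 0.9984). *Neb* was closest to *Zfp945*, *Myl4*, the atrial and fetal essential light chain, and *Evi5* (0.9968 to 0.9962). The nesprin genes were closest to *Clip1*, *Six4* and *Casq1*, the skeletal calsequestrin, for *Syne1* (0.9977 to 0.9974) and to *Mpdz* and *Zfp950* for *Syne2* (0.9977 to 0.9952). *Ahnak* was closest to *Ikbip*, *Flt1* and *Limch1* (0.9977 to 0.9968), *Speg* to *Spice1*, *Cep85* and *Dhcr7* (0.9739 to 0.9581) and *Nebl* to *Smad2*, *Mbd3* and *Cggbp1* (0.9967 to 0.9922).

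Length moved with the difference over all genes, and all 9 members lie in the longest of 10 bins of equal size. These bins held protein-coding genes whose mean was at least 10, and the median log2 fold change went from -0.21 in the bin with the shortest merged exons to 0.11 in the bin with the longest. The share of called genes went from 1.85% to 10.2%, and median GC content from 53.3% to 46.1%. The trend was present in αKG replicate 1 (-0.34 to 0.15) and αKG replicate 2 (-0.19 to 0.14), and was small in αKG replicate 3 (-0.07 to 0.03). In the longest bin the median of 0.11 was below that of the members, and *Speg*, *Ahnak* and *Nebl* lay closest to it.

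Other genes for very long proteins were often higher too. Without the 9, 94 genes for proteins of at least 3000 residues had a mean of at least 10, and 25 of them (26.6%) were called higher in αKG and 0 lower by limma. At an unadjusted p under 0.05 these counts were 59 and 3, and limma-voom on estimated reads gave 13 and 0. Of the 11883 protein-coding genes with such a mean, 3.79% were called higher and 1.57% lower, and of all genes 28.1% had an unadjusted p under 0.05. The count of very long genes called higher was 71, with 4 lower, without αKG replicate 3, where 3865 of all 20066 genes were called higher. It was 6 without DMSO replicate 1, 0 without any other single library, and 1 with DMSO replicates 2 and 3 counted as 1 sample. The median log2 fold change of the 94 genes was 0.35, with 0.49, 0.37 and 0.08 in αKG replicates 1 to 3. Of the 9 members 4 lay below it, among them *Nebl*, whose longest annotated protein has only 1014 residues. Of the 94 genes, 41 had a larger log2 fold change than *Ttn* and 33 a larger one than *Syne2*. Some of them work outside the muscle, such as *Fat1*, a giant cadherin (3266, 3523 and 3297 against 5297, 4974 and 3766 normalized counts, log2 fold change 0.46 ± 0.11, limma adjusted p = 0.0493). Not all very long genes were higher. The lowest log2 fold change of the 94 was that of *Lama3*, a laminin chain, at 193, 158 and 160 normalized counts with DMSO and 46, 40 and 123 with αKG (-1.46 ± 0.35, limma adjusted p = 0.0512). *Cmya5*, the gene of myospryn, was at -0.13 ± 0.06, *Vps13d* at 0.00 ± 0.05, *Kmt2d* at -0.05 ± 0.06 and *Bptf* at -0.02 ± 0.06. The part of length in the members' differences was not tested.

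**Figure D3:**
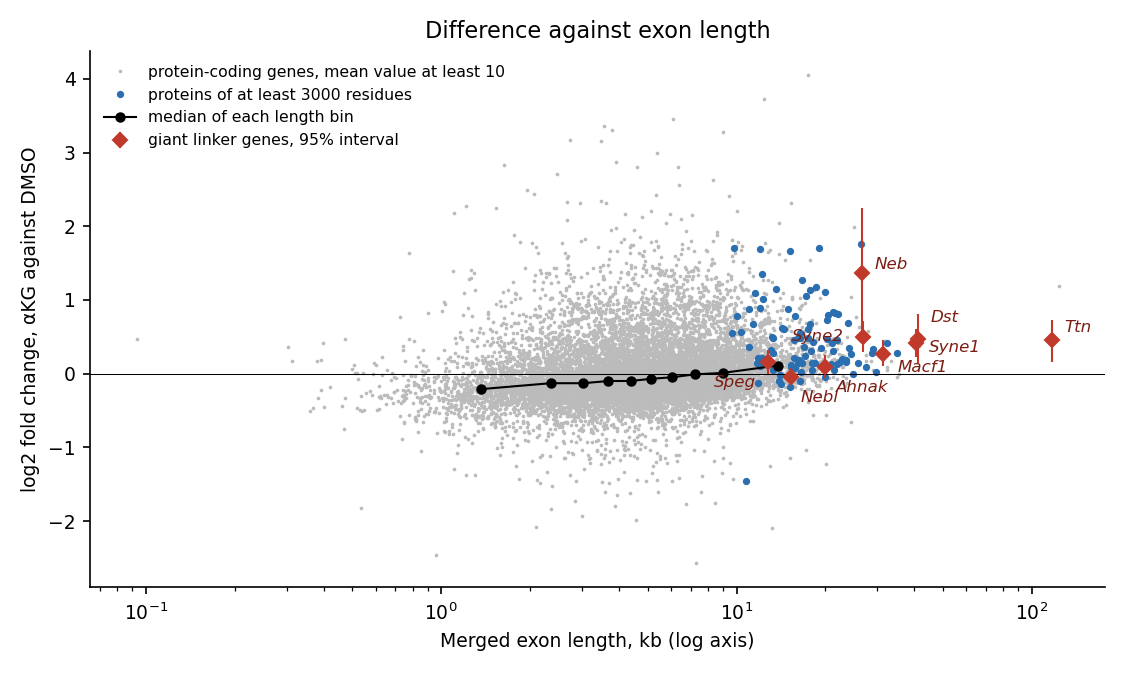
Log2 fold change of αKG against DMSO plotted against merged exon length in kb (log axis) for protein-coding genes with a mean value of at least 10 (grey), genes outside the 9 for proteins of at least 3000 residues (blue) and the 9 giant linker genes (red, with 95% intervals). *Nebl*, with 1014 residues, is shown in red though its protein is shorter than this limit. The black line joins the medians of the 10 length bins, from -0.21 to 0.11, and the red points lie among the blue ones.

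The alternatives for processing that touch length and composition moved the members by different amounts. *Neb*, *Syne1*, *Syne2*, *Dst* and *Speg* stayed above 0 under the GC and length correction (1.17, 0.29, 0.38, 0.32 and 0.26 on the log2 scale), under the same correction with no limit on the trend (1.16, 0.21, 0.36, 0.24 and 0.24) and under quantile normalization (1.24, 0.32, 0.43, 0.21 and 0.10). *Ttn*, *Macf1* and *Ahnak* did not stay above 0 under all of them. Quantile normalization sets the difference of *Ttn* to 0.00 by its construction, as *Ttn* holds the highest value in every library.

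**Figure D4:**
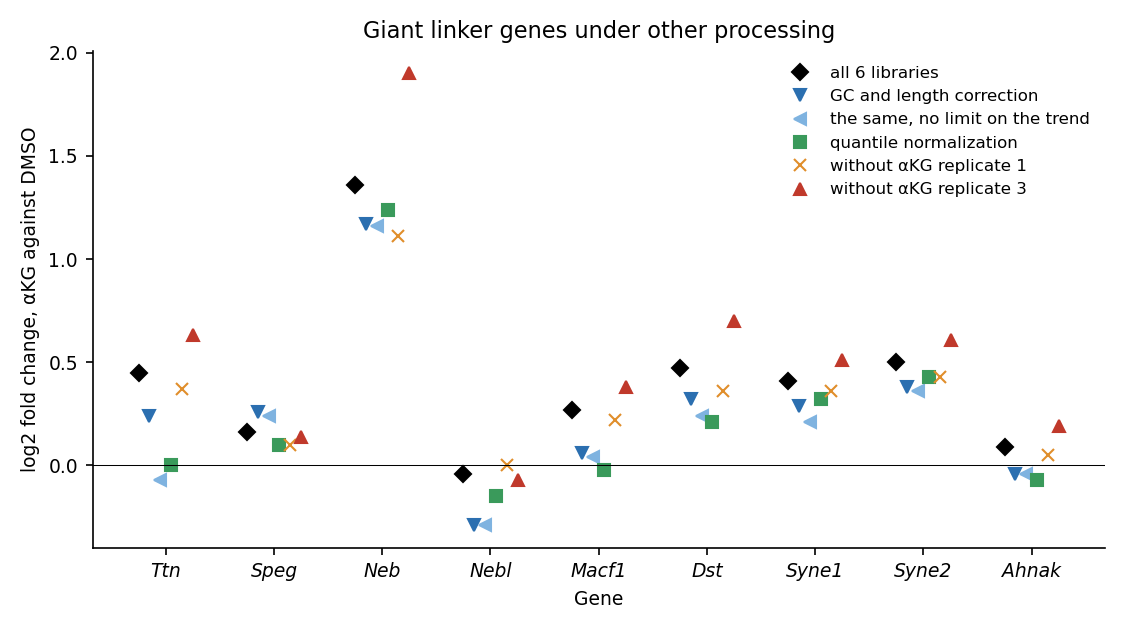
Log2 fold change of αKG against DMSO for the 9 giant linker genes in the fit of all 6 libraries (black) and under 5 alternatives. Leaving out αKG replicate 3 gives the highest value for all genes but *Speg* and *Nebl*, and *Ttn*, *Macf1* and *Ahnak* reach or cross 0 under a correction for length or quantile normalization.

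Partners and relatives of the 9 genes were described in 7 lists. Of 157 different genes in the table, 16 were called higher and 1 lower, which is 10.8% against 3.78% of all genes, and their median log2 fold change was 0.05. The lists were chosen with earlier results of these data known, so nothing is read from this share. Of protein-coding genes with a mean of at least 10, 3.79% were called higher and 1.57% lower. *Xirp2*, *Dmd*, *Plec* and *Eppk1* were also among the very long genes called higher above. Among the 157 partner genes an unadjusted p under 0.05 was found for 42 higher and 26 lower, and limma-voom called 12 higher and 0 lower. The count was 91 without αKG replicate 3, a fit in which 7466 of all 20066 genes passed. It was 3 without DMSO replicate 1, and 0 without any other library or with DMSO replicates 2 and 3 counted as 1 sample. The calls named next thus rest on the fit of all 6 libraries.

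Around titin, 5 of 26 genes were called higher and 0 lower by limma (12 and 5 at an unadjusted p under 0.05, 3 and 0 by limma-voom), with a median of 0.10. *Ankrd23*, an ankyrin repeat protein of the titin N2A region, had 19, 26 and 36 normalized counts with DMSO and 73, 68 and 71 with αKG (log2 fold change 1.40 ± 0.24 SE, limma adjusted p = 0.027). Its αKG libraries lay together, replicate 3 included. *Ankrd1*, the related cardiac ankyrin repeat protein, went from 1314, 1341 and 1340 to 1651, 1710 and 1551 (0.30 ± 0.06, limma adjusted p = 0.0354). *Myom1*, which crosslinks myosin at the M-band, went from 3495, 3583 and 3624 to 4560, 4575 and 4004 (0.29 ± 0.06, limma adjusted p = 0.0374). *Fhl1* and *Csrp3* were the other called genes. Among regulators of titin splicing, 1 of 14 was called, *Celf2*, with 652, 683 and 688 normalized counts against 1108, 1151 and 895 (0.63 ± 0.09, limma adjusted p = 0.0159). *Rbm20*, the main splicing repressor of titin exons, had 2712, 2723 and 2757 with DMSO and 2426, 2285 and 2648 with αKG, without overlap but with an adjusted p of 0.134 (limma). Whether the exon use of *Ttn* differed was not tested, as the table holds 1 value per gene.

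Around the thin filament, 3 of 23 genes were called higher and 0 lower by limma (8 and 4 unadjusted, 3 and 0 by limma-voom), with a median of 0.06. *Xirp2*, an actin-binding protein of the intercalated disc, was at 1243, 1798 and 1617 normalized counts with DMSO and 5817, 6504 and 3182 with αKG (log2 fold change 1.69 ± 0.23 SE, limma adjusted p = 0.0111). *Nrap*, the nebulin-related anchoring protein of myofibril assembly, was at 1722, 1701 and 1693 against 2434, 2475 and 2124 (0.46 ± 0.07, limma adjusted p = 0.0136), and *Flnc*, filamin C, at 2441, 2483 and 2478 against 3520, 3077 and 2918 (0.36 ± 0.07, limma adjusted p = 0.0341). In all of them αKG replicate 3 was the lowest of its group and still above every control. None of the 13 triad and SPEG partners was called by limma or limma-voom, with 1 higher and 3 lower at an unadjusted p under 0.05 and a median of 0.01, and *Ryr2*, the calcium release channel, was at 0.27 ± 0.07 (limma adjusted p = 0.0567).

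Of 31 plakins, spectrins and their partners, 4 were called higher and 0 lower by limma (9 and 3 unadjusted, 3 and 0 by limma-voom), with a median of 0.06. *Eppk1*, epiplakin, was at 100, 126 and 117 normalized counts with DMSO and 223, 216 and 251 with αKG (log2 fold change 1.01 ± 0.13 SE, limma adjusted p = 0.00712). *Plec*, plectin, was at 2987, 3117 and 3020 against 4609, 3995 and 3742 (0.43 ± 0.07, limma adjusted p = 0.0248). *Gas2l3*, which carries the GAS2 domain of the spectraplakins and acts in cell division, was at 517, 354 and 243 against 712, 713 and 771 (1.04 ± 0.21, limma adjusted p = 0.0377). *Dmd*, dystrophin, was the other called gene. These αKG values did not follow the order seen in *Dst* and *Macf1* for *Eppk1* and *Gas2l3*, where replicate 3 was the highest.

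Of 30 genes of the nuclear bridge and lamina, 2 were called higher and 0 lower by limma (5 and 5 unadjusted, 1 and 0 by limma-voom), with a median of 0.04. These were *Lbr*, the lamin B receptor, at 178, 157 and 156 normalized counts against 247, 236 and 241 (log2 fold change 0.56 ± 0.10 SE, limma adjusted p = 0.0293), and *Tmpo*, lamina-associated polypeptide 2, at 1103, 986 and 814 against 1243, 1296 and 1410 (0.45 ± 0.10, limma adjusted p = 0.0476). *Dync1h1*, the dynein heavy chain, did not pass, at 0.21 ± 0.08 (limma adjusted p = 0.122). Of 20 partners of AHNAK and genes of membrane repair, *Cavin4*, a caveolar protein of muscle, was called higher (101, 120 and 135 against 271, 343 and 248, log2 fold change 1.26 ± 0.15, limma adjusted p = 0.00696). *Capn1*, calpain 1, was called lower (312, 278 and 303 against 211, 188 and 233, -0.50 ± 0.11, limma adjusted p = 0.0424), a call not made by limma-voom. *Cacna1c*, the pore of the L-type channel, was at -0.05 ± 0.06 (limma adjusted p = 0.619).

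**Figure D5:**
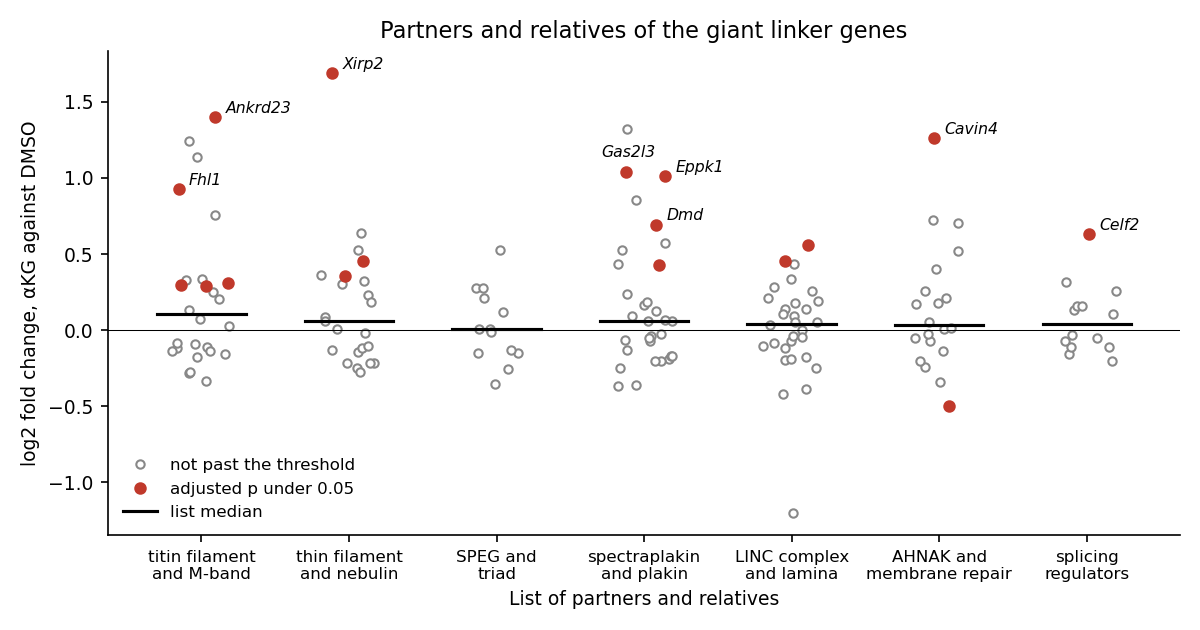
Log2 fold change of αKG against DMSO for every gene of the 7 lists of partners and relatives; filled red points passed the threshold, open points did not, and black bars are list medians. The medians lie between 0.01 and 0.10, and 16 of 157 genes were called higher and 1 lower.

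Markers of other cells moved with the αKG libraries that were high for the members. The summed value of 12 fibroblast markers was 3761 to 3946 in the DMSO libraries, 8385 and 8129 in αKG replicates 1 and 2 and 3796 in αKG replicate 3. That of 10 epicardial and mesothelial markers was 505 to 569, then 1263, 1270 and 515. *Col1a1* and *Col1a2*, the chains of type I collagen, stood at 1018, 1006 and 951 and at 645, 620 and 581 normalized counts with DMSO and at 2402, 2288 and 1042 and 1872, 1780 and 689 with αKG. None of either list was called by limma or limma-voom, with 7 and 3 higher at an unadjusted p under 0.05 and medians of 0.64 and 1.00, and no listed marker was at 0 in all libraries. The 12 cardiomyocyte markers, which hold the long gene *Ryr2*, summed to 33680, 32954 and 29632 with αKG, with a median of 0.07 and 0 called by limma or limma-voom (2 higher and 1 lower at an unadjusted p under 0.05). Of 12 endothelial markers 9 were called lower by limma and 4 by limma-voom, and their sum was 2366 to 2479 with DMSO and 1611 to 1761 with αKG, replicate 3 included, among them *Cdh5*, the endothelial cadherin (log2 fold change -1.04 ± 0.16 SE, limma adjusted p = 0.0181). The other 3, *Flt1*, *Tek* and *Vwf*, were not called and had positive differences, with *Flt1*, the VEGF receptor with the highest mean of the list, at 485, 510 and 499 against 733, 719 and 411. Smooth muscle and pericyte markers summed to 3664 to 3772 with DMSO and 5160, 4861 and 4111 with αKG, with 2 of 10 called higher by limma and 0 by limma-voom. The highest of this list, *Des*, desmin, was at 1410, 1377 and 1405 against 1723, 1743 and 1464 and was not called. Next came *Acta2*, at 0.08 ± 0.07 and not called, and *Cspg4*, at 0.66 ± 0.13 and called by limma. Without αKG replicate 3, 10 of 12 fibroblast, 10 of 10 epicardial, 5 of 10 smooth muscle and 4 of 12 cardiomyocyte markers were called higher, with 1 cardiomyocyte marker lower, and endothelial markers gave 2 higher and 9 lower. Of all 20066 genes, 7466 passed in that fit, 3865 of them higher. Without any other single library, or with DMSO replicates 2 and 3 counted as 1 sample, 0 markers of these lists were called. The 4 macrophage markers listed summed to 22 to 35 with DMSO and 24 to 41 with αKG, none called by limma or at an unadjusted p under 0.05. *Dst*, *Macf1*, *Syne1*, *Syne2* and *Ahnak* are also expressed in non-muscle cells. The part of these cells in the members' values was not tested.

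Loci that overlap the members held few counts. *Gm13938*, antisense to *Ttn*, had 11, 11 and 4 normalized counts with DMSO and 23, 27 and 12 with αKG. Within *Dst*, *Gm38157* on the same strand had 17, 21 and 28 against 82, 68 and 30, and *Gm37354* had 8, 14 and 16 against 39, 30 and 19. *Gm10097*, opposite to *Syne1*, had 28, 21 and 24 against 44, 64 and 25. At these 4 loci αKG replicates 1 and 2 were above all controls, an order that was not counted over all genes. None of them was called (limma adjusted p = 0.129, 0.0705, 0.0912 and 0.172 in the order named). *Gm12925*, antisense to *Macf1*, was at 8, 8 and 2 against 5, 2 and 3, and the other 3 loci in the table had at most 6 counts in any library. Without a stated strand setting of the counting their reads and those of the hosts could not be assigned with certainty.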

How the data were processed

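Total RNA of 6 cultures (3 DMSO, 3 αKG) was prepared with a stranded total RNA kit and sequenced as single-end reads. The study's methods describe such a kit and run for adult CMs and do not name the neonatal cultures there. Per the study's methods and the submitters' processing notes, the authors trimmed reads (Trimmomatic 0.39), aligned them to GRCm38 (STAR 2.7.10a), counted exon reads per gene without reads of several genes or places (featureCounts 2.0.3) and normalized them with DESeq2 1.30.1. The values the authors deposited are such counts divided by size factors and rounded to whole numbers, a unit treated as a score. Count models were therefore not used on them. Steps in the values gave the value of 1 read, 0.9258 to 1.1188, and so 3726069 to 4428350 reads per library. All 20 factors drawn in simulated data were recovered. Sampling noise covers counting error only.

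log2(value + 1) was fitted with treatment as the only term (limma 3.58.1, R 4.3.3, variance trend, empirical Bayes), with no filter and Benjamini-Hochberg adjustment over 20066 genes. On simulated data, 189 of 200 genes changed 2-fold and 1 unchanged gene were called. The simulation gave every gene the same small spread, changed only genes with higher means and held no library that stood apart. It therefore checks the fit and does not give its power or false calls in these 6 libraries. The pseudocount understates changes of low genes. Exon length and GC content came from GENCODE M21 (GRCm38), where 99.0% of genes had the same position. Start sites came from RefSeq on GRCm38.p6, with 250 bases before each start. The strand setting of the counting is not given in the sources used here.

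The members and the lists of partners and markers were chosen with earlier results of these data known. The members were named in full. From each partner list the called genes with the smallest p, up to 3, and otherwise those with the highest mean were named, with a few others picked after their values were seen (*Fhl1*, *Csrp3*, *Dmd* and the very long genes). For likeness the 3 genes with the highest r were named, and some genes these rules would name are not reported here.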

Additional observations from a re-analysis of the deposited data

How the results depend on the processing

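The number of giant linker genes past the threshold was 2 in the fit of all 6 libraries and 0 without the variance trend, with the replicate block or with DMSO replicates 2 and 3 averaged, 4 with the replicate block and the GC and length correction together, and 6 without adjustment. Over the fits without 1 library it ranged from 0 to 7, and it was 7 only without αKG replicate 3. The number of partner genes, 17, was 10 with a pseudocount of 0.1, 0 without the variance trend, with the replicate block or with DMSO replicates 2 and 3 averaged, 68 without adjustment and 0 to 91 over the fits without 1 library. Of all genes, 759 passed, compared with 346 with a pseudocount of 0.1, 27 without the variance trend, 46 with the replicate block, 19 with DMSO replicates 2 and 3 averaged, 338 with limma-voom on estimated reads, 5648 without adjustment and 0 to 7466 over the fits without 1 library. Whether same-numbered libraries were paired is not given in the sources used here. Their deviations from the group means correlated at -0.0744, 0.136 and 0.00192. These values cannot decide it, because αKG replicate 3 stood apart and weighs on the αKG deviations of all replicates.

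Of the direction changes, *Macf1* was at -0.02 and *Ahnak* at -0.07 with quantile normalization. The GC and length correction put *Ahnak* at -0.04, and so did this correction combined with the replicate block. With a correction without a limit on the trend, chosen after seeing the data, *Ttn* was at -0.07 and *Ahnak* at -0.04. The median correlation among the members, 0.90, was 0.75 after the GC and length correction and 0.85 to 0.97 over the fits without 1 library. It was not run with quantile normalization, which makes *Ttn* constant. Of 153 values of single members under alternatives, 16 lost and 9 gained a call and 6 changed direction. The causes were not tested. Depth limits *Neb*, with 28 to 37 normalized counts in the DMSO libraries.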
